A study of Mus musculus with 4 samples.

Results

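The type VI collagen genes Col6a1, Col6a2 and Col6a3 and the collagen genes Col8a1, Col12a1, Col14a1, Col16a1 and Col19a1 were followed in muscle stem cells of the mouse. They are 8 of the 31055 features in the deposited tables and were taken by symbol from a list of names. Muscle stem cells, the Pax7-expressing progenitors that repair muscle fibres, had been sorted from Tg:Pax7-nGFP mice aged 2 to 4 months, in which the Pax7 gene's control region drives a nuclear GFP, and their polyadenylated RNA was counted as unique molecular identifiers (UMIs) in single cells on the 10x Genomics platform. There were 4 libraries, 1 per group: quiescent cells of the eye-moving extraocular muscles (EOM), quiescent cells of the tibialis anterior, a shin muscle (TA), and activated cells of each muscle, cultured for 4 days in growth medium on Matrigel, a basement membrane extract, under 3% oxygen. All 4 groups carried the same transgene and were sorted for it, and the activated cells had been isolated by FACS in the same way before culture. How many animals a library came from, and whether they were pooled, is not given in the sources used here. With 1 library per group no test was possible: intervals are exact 95% intervals of counting error only, and a gene was called higher or lower where its ratio reached 2-fold and its level reached 5 CPM in either of the sums compared. CPM is a gene's summed UMIs after every sum of cells is scaled to the same total.

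Type VI collagen is assembled inside the cell from chains encoded by Col6a1, Col6a2 and Col6a3 and forms beaded microfilaments close to the muscle basement membrane. Mutations of its genes cause Ullrich and Bethlem muscle disease, and interstitial fibroblasts are its best known source in muscle, although satellite cells are also known to secrete it. The fibril-associated collagens with interrupted triple helices lie on or near fibrils of other collagens, and types XII, XIV, XVI and XIX belong to them. Type XII and type XIV coat fibrils of type I collagen, and mutations of COL12A1 cause a myopathy that resembles those of type VI. Type XIX is known from developing muscle and from basement membrane zones. Type VIII, encoded by Col8a1, is a short-chain collagen that forms networks in vessel walls and in Descemet's membrane of the cornea, so it is not itself a fibril-associated collagen in the usual classification.

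The libraries held between 4262 and 7597 barcodes, of which between 2908 and 5563 were kept as cells, with a median of 4662 UMIs per cell in quiescent EOM, 5038 in quiescent TA, 21261 in activated EOM and 23383 in activated TA. Quiescent TA stood apart in quality, with 40.5% of its barcodes above 10% mitochondrial UMIs against 11.7% to 24.7% in the other libraries. Pairs of libraries shared between 5 and 12 cell barcodes. The labels were checked against state genes in cells thinned to 2000 UMIs. Pax7 was present in 39.6% of the quiescent cells from EOM and 46.2% of those from TA. Myog, which drives terminal differentiation, was in 0.171% and 0.140% of them, against 50.3% (EOM) and 60.9% (TA) of activated cells. Myod1, the myogenic determination factor, separated the states less in TA. It was present in 11.9% of quiescent and 55.0% of activated EOM cells, and in 47.3% and 80.6% of TA cells. In full counts Myod1 of TA was at 1190 CPM in quiescent and 1194 in activated cells, against 150 and 661 in EOM. Among the markers of other cell types, the fibroblast list summed to 746.5 CPM in the quiescent EOM library and 761 in the TA one, and to 88.7 and 79.2 after activation, with UMIs for 11, 11, 10 and 8 of its 11 genes, and its defining gene Pdgfra lay between 0.0651 and 0.229 CPM in all 4 libraries. Without its collagens the same list summed to 249, 270.3, 9.52 and 21.4 CPM, of which Dpt made up 202 and 244 CPM in the quiescent libraries, where it was found in 1828 and 1807 cells. Ptprc, which defines immune cells, had no UMI in any library, and Lum had none in the activated ones. Other genes of the immune list were found. In quiescent TA, 1 cell held all 40 UMIs of C1qb, and 45 of the 47 C1qa UMIs came from 1 cell. Laptm5 was counted in 302 cells of the activated EOM library (2.87 CPM) and 761 cells of the TA one (9.61 CPM). Cd68 had UMIs in every library, from 0.986 to 5.67 CPM. The mural list was led by Acta2 in the activated libraries. Of its other genes, Pdgfrb was at 30.8 CPM in activated EOM against 1.08 in activated TA and Notch3 at 29.7 against 10.8, while Cspg4 was at 2.94 against 8.95. The rest of the list, Rgs5, Myh11, Kcnj8, Abcc9 and Higd1b, lay between 0.00815 and 0.603 CPM in activated EOM. In activated TA these genes lay between 0 and 0.557 CPM.

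The sequences before the type VI genes are shown because the CPM of Col6a1 and Col6a2 was lower after activation in both muscles while that of Col6a3 was higher, and that before Col8a1 because its level also differed between cells with and without Myog. Col6a1 (chromosome 10, 76708792 to 76726168, minus strand) and Col6a2 (chromosome 10, 76595762 to 76623630, minus strand) lie 85161 bases apart on the same strand with 1 annotated gene, Gm35608, between them, whereas Col6a3 lies on chromosome 1 (90765923 to 90843971, minus strand), in GENCODE vM21 on GRCm38. The E-box CANNTG is the core that Myod1, Myog and many other basic helix-loop-helix factors bind. Each line reads 5′ to 3′ on the gene's strand from the RefSeq promoter table (GRCm38.p6), ends before the first annotated base of the gene, and has E-boxes in capitals. The intervals are chr10:76726169-76726294 for Col6a1, chr10:76623631-76623880 for Col6a2, chr1:90843972-90844221 for Col6a3 and chr16:57754738-57754987 for Col8a1, all on the minus strand.
Col6a1: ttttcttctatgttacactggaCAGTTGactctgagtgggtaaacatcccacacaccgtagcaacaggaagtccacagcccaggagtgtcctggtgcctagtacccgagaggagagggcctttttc
Col6a2: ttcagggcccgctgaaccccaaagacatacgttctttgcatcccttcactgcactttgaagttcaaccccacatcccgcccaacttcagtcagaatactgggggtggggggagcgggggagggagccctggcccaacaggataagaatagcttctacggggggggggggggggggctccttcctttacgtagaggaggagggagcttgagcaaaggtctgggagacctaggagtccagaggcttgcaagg
Col6a3: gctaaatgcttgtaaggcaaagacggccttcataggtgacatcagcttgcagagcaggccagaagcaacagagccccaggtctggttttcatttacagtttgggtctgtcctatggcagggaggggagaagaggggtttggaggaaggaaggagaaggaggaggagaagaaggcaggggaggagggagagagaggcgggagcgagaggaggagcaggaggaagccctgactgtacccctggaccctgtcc
Col8a1: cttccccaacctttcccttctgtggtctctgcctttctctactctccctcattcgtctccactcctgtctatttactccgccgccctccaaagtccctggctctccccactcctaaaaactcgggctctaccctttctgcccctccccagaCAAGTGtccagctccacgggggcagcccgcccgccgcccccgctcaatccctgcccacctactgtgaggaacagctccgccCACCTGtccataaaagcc
Of the 8 genes, 6 had an entry in that table, and Col12a1 and Col14a1 had none. Matches were counted over the table's whole 250 bases before the RefSeq start, of which the line for Col6a1 prints the 126 that lie outside the annotated gene. There CANNTG, which reads the same on both strands, occurred once before Col6a1 and Col19a1, in 2 places before Col8a1 and Col16a1, and not before Col6a2 or Col6a3. It occurs in 66.2% of 32851 such windows. GGGCGG, the GC box, occurred in 4 places before Col8a1 and in 1 place before Col6a2 and Col16a1 (32.7% of windows hold it), CCAAT in 1 place before Col16a1 alone (33.8%) and TATAAA before none (12.4%), with both strands searched. These are matches of letters and no more.

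Col6a1, the alpha 1 chain of type VI collagen, stood at 178 CPM (95% counting interval 172 to 184) in quiescent EOM, 97.98 (93.1 to 103) in quiescent TA, 31.3 (30.3 to 32.3) in activated EOM and 2.27 (1.99 to 2.58) in activated TA. None of these intervals overlap, and the order runs from quiescent EOM down to activated TA. Col6a2, the alpha 2 chain, had the same order, with 53.8 (50.4 to 57.4), 24.6 (22.1 to 27.2), 9.35 (8.82 to 9.91) and 0.557 CPM (0.422 to 0.722). Col6a3, the large alpha 3 chain that carries most of the type A domains of the assembled filament, ran the other way, with 0.115 CPM from 2 UMIs in quiescent EOM, 0.326 from 5 UMIs in quiescent TA, 4.57 (4.20 to 4.97) in activated EOM and 2.18 (1.90 to 2.49) in activated TA. Its quiescent levels cannot be told apart within counting error, and both lie below both activated ones.

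Col12a1, the type XII chain, was at 9.16 CPM (7.80 to 10.7) in quiescent EOM, 14.9 (13.0 to 17.0) in quiescent TA, 27.8 (26.8 to 28.7) in activated EOM and 7.26 (6.75 to 7.81) in activated TA. It was thus highest in activated EOM and lowest in activated TA, with the intervals of quiescent EOM and activated TA overlapping narrowly. Col14a1, the type XIV chain, was at the edge of detection, with 1 and 2 UMIs in the quiescent libraries of EOM and TA and 22 and 13 in the activated ones, at most 0.179 CPM, and with overlapping intervals in all 4. Col16a1, the type XVI chain, was at 14.2 (12.5 to 16.1), 4.04 (3.10 to 5.18), 0.693 (0.553 to 0.856) and 0.117 CPM (0.0606 to 0.205) in the same order, again highest in quiescent EOM and lowest in activated TA. Col19a1, the type XIX chain, was highest in quiescent TA: 2.92 CPM (2.17 to 3.84) in quiescent EOM, 31.2 (28.5 to 34.1) in quiescent TA, 3.12 (2.82 to 3.45) in activated EOM and 9.63 (9.04 to 10.2) in activated TA. The EOM levels of Col19a1 in the quiescent and activated libraries overlap. Col8a1, the alpha 1 chain of type VIII, was at 8.88 (7.53 to 10.4), 16.0 (14.1 to 18.2), 44.2 (43.1 to 45.4) and 29.7 CPM (28.6 to 30.8), with activated EOM highest and quiescent EOM lowest. Antisense genes annotated over Col12a1 and Col14a1 had at most 3 UMIs in any library.

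**Figure D1:**
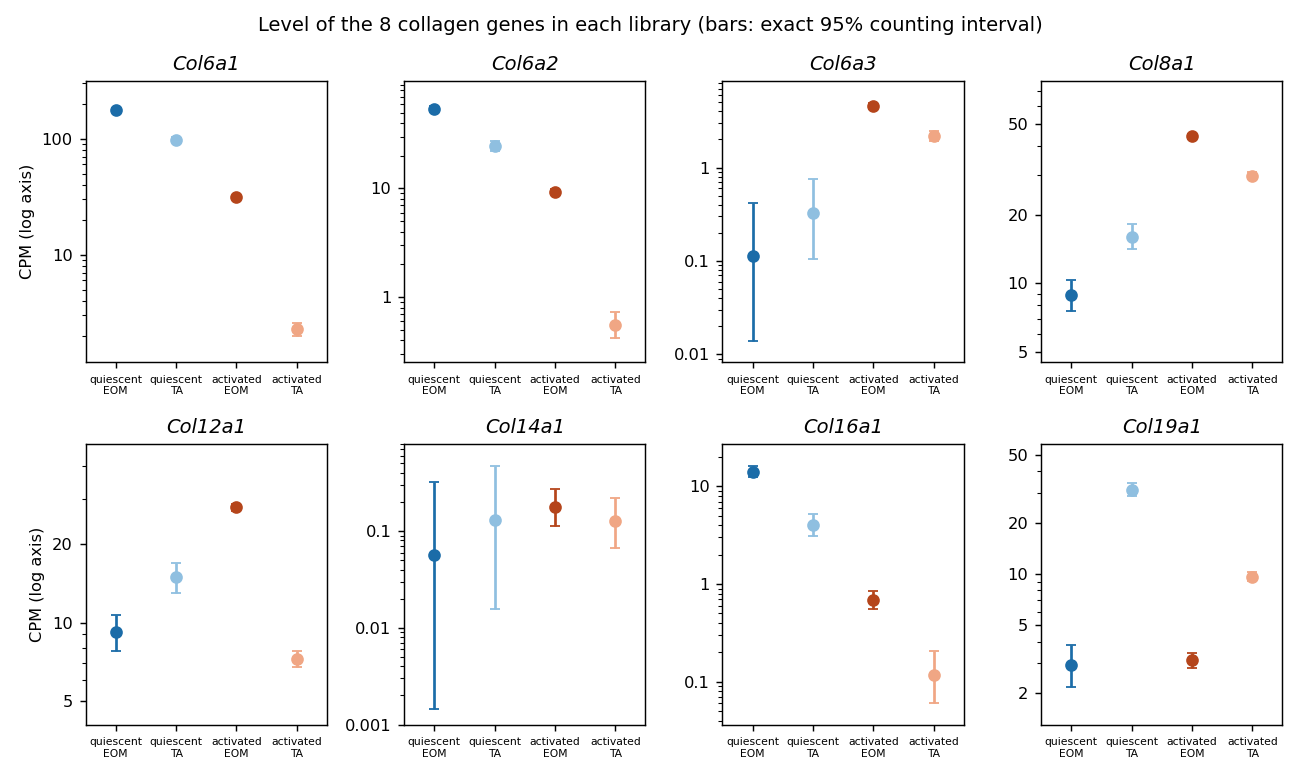
Level of each collagen gene (CPM, log axis with its own range per gene) in the quiescent libraries (EOM, TA) and the activated ones (EOM, TA), 1 point per library; bars are exact 95% counting intervals. Col6a1, Col6a2 and Col16a1 descend from quiescent EOM (178, 53.8 and 14.2 CPM) to activated TA (2.27, 0.557 and 0.117), Col6a3 and Col8a1 are higher in the activated libraries, and Col19a1 peaks in quiescent TA at 31.2 CPM.

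Depth differed between states, so shares of cells with a UMI were compared after thinning each cell to 2000 UMIs. Col6a1 was then present in 28.4% of quiescent EOM cells (27.0 to 29.97), 15.4% of quiescent TA cells (14.1 to 16.8), 6.38% of activated EOM cells (5.75 to 7.06) and 0.425% of activated TA cells (0.252 to 0.671). Without thinning the same shares were 50.8%, 34.6%, 31.0% and 3.55%. Col8a1 was found in 1.31%, 2.46%, 7.50% and 5.86% of thinned cells, and Col12a1 in 1.25%, 3.12%, 5.66% and 1.23%. The thinned shares of these genes have the order of their CPM, except that for Col12a1 the near-equal shares of quiescent EOM and activated TA cannot be ranked. Col16a1 had no UMI in 4234 thinned cells of activated TA, which allows a share of up to 0.0709% at that depth, and 11 cells (0.257%) held one without thinning. The reference for free RNA was 16 endothelial-like cells of quiescent TA with a median of 5194 UMIs, close to the 5038 of that library's muscle cells. They held 4 UMIs of Col6a1, which is 38.7 CPM (10.5 to 99.0), and none of the 13 that could be thinned had a Col6a1 UMI, which allows up to 23.1%. They also held 2 UMIs of Col12a1, 19.3 CPM (2.34 to 69.8), in 1 of the 13 thinned cells, against 14.9 CPM in that library's muscle cells. Pax7 had 4 UMIs in the reference cells, 38.7 CPM (10.5 to 99.0), in 2 of the 13. In the muscle cells Pax7 stood at 386 CPM and Col6a1 at 98.0. The 23.1% limit lies above the share of each of the 8 collagens in quiescent TA, so how much free RNA adds to those shares was not resolved, and no such reference cells were found in the other libraries.

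The UMIs were spread unevenly over cells. In quiescent EOM the 3104 Col6a1 UMIs came from 1827 cells, and the 36 richest cells (1% of cells) held 6.44% of them. In activated TA the 232 Col6a1 UMIs came from 152 of 4281 cells, with the 43 richest holding 53.0%, and the 223 Col6a3 UMIs came from 146 cells, with the 43 richest holding 53.8%. Activated EOM was in between for Col6a1, with 3841 UMIs in 1723 cells and 11.7% in the richest 1%. For genes with few UMIs the richest 1% of cells hold a large share whatever their spread. In the quiescent libraries 30 cells held 46.7% of the 246 Col8a1 UMIs of quiescent TA, and 36 cells held 56.9% of the 160 Col12a1 UMIs of quiescent EOM. Col19a1 of quiescent TA was spread widely, with 479 UMIs in 417 cells and at most 4 in any cell.

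Quiescent EOM was compared with quiescent TA to see how the same collagens differ between stem cells of a head and a limb muscle. Of 6 collagens that reached 5 CPM, 2 were called higher in EOM and 1 lower, where 4.84% of 9228 genes were called higher and 2.65% lower. Col16a1 was 3.52-fold higher in EOM (2.65 to 4.72) and Col6a2 2.19-fold higher (1.94 to 2.48), while Col19a1 was 10.7-fold lower (7.99 to 14.6). Cells without a UMI of Pdgfra, Dcn, Dpt, Lum, Pecam1, Cdh5, Ptprc or Rgs5, markers of other types, were also taken alone. They numbered 1646 of 3594 in EOM and 1047 of 2908 in TA, and Dpt by itself was present in 1828 and 1807 cells. Among them Col19a1 was 6.82-fold lower (4.63 to 10.3). With at most 5% mitochondrial UMIs it was 31.4-fold lower (6.70 to 295), from 2 EOM and 10 TA UMIs. Col6a1 was 1.81-fold higher (1.71 to 1.93), short of the limit, and Col8a1 and Col12a1 had EOM to TA ratios of 0.554 and 0.614. The median log2 ratio of the 6 (pseudocount of 1 CPM) was 0.10, and over all genes tested it was also 0.10. The call of Col6a2 sits at the limit, with 2.01-fold under TMM factors and 1.99-fold under median-of-ratios factors, and in the 263 EOM and 46 TA cells with at most 5% mitochondrial UMIs Col6a2 had a ratio of 0.931 (0.525 to 1.78) and Col16a1 of 0.795 (0.169 to 7.46), from 14 and 2 TA UMIs, with intervals that include 1. Myod1, the myogenic determination factor, was at 150.0 CPM in quiescent EOM and 1190 in quiescent TA, and the mitochondrial shares differed as given above; their part in these ratios was not tested.

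Activated EOM was then compared with activated TA. Of 5 collagens at 5 CPM or more, 3 were called higher in activated EOM than in activated TA and 1 lower, against 2.97% and 1.37% of 8892 genes, and their median log2 ratio was 1.80 against -0.01 over all genes tested. Col6a1 was 13.8-fold higher in EOM (12.1 to 15.8), Col6a2 16.8-fold (12.9 to 22.3) and Col12a1 3.82-fold (3.53 to 4.14). Col19a1 was again lower in EOM, by 3.09-fold, where it had been 10.7-fold lower in the quiescent libraries. Col8a1 was 1.49-fold higher (1.43 to 1.56) and not called. Col6a3 (2.10-fold higher, 1.79 to 2.46) and Col16a1 (5.90-fold, 3.21 to 11.9) were below 5 CPM in both libraries. In the 2866 EOM and 2303 TA cells without a UMI of Mki67 or Top2a, genes of dividing cells, Col6a1 was 14.4-fold higher and Col12a1 3.81-fold higher. A filter kept cells without a UMI of Pdgfra, Dcn, Dpt, Lum, Pecam1, Cdh5, Ptprc or Rgs5, markers of fibroblasts, endothelium, immune and mural cells. It left 5336 of 5563 EOM and 4126 of 4281 TA cells, in which the same genes were 14.5-fold and 3.75-fold higher. Because it took out few cells, these ratios could hardly change, and they cannot show what other cell types contribute. Cells with Pdgfrb, 1778 in EOM and 85 in TA, were not removed by the filter. Acta2, which smooth muscle and cultured myoblasts both express, measured 2030 CPM in the activated EOM library and 1175 in the TA one, and its part, like that of Pdgfrb, was not tested. The EOM to TA ratios of the quiescent and the activated libraries stand side by side here; whether they differ was not tested.

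**Figure D2:**
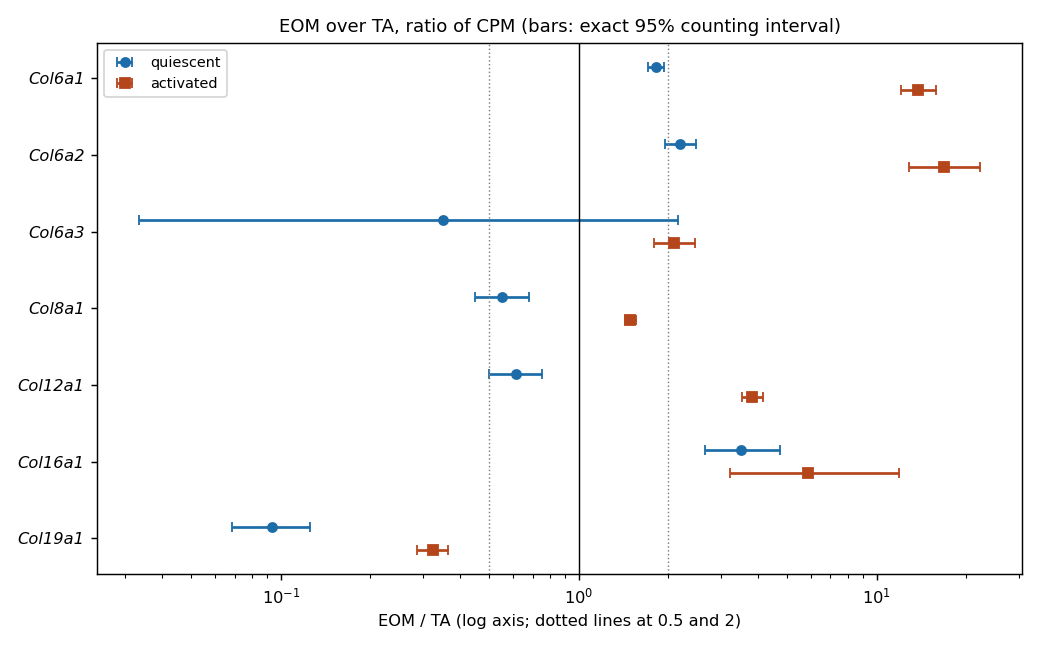
Ratio of CPM in EOM to CPM in TA (log axis) for 7 collagens in the quiescent libraries (circles) and the activated libraries (squares), with exact 95% counting intervals and dotted lines at 2-fold either way; Col14a1 is left out for its few UMIs. Col6a1 lies at 1.81 and 13.8, Col12a1 at 0.614 and 3.82, and Col19a1 left of 1 in both.

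Activated cells were compared with quiescent cells of the same muscle, which puts a library cultured for 4 days against one processed without culture. About as many genes lay beyond the 2-fold limit, in either direction, as within it, 50.7% of 10065 in EOM and 53.9% of 9860 in TA. In EOM, Col6a1 was 5.68-fold lower after activation (5.42 to 5.96), Col6a2 5.75-fold lower and Col16a1 20.5-fold lower (16.0 to 26.5). In the same muscle Col8a1 was 4.98-fold higher (4.25 to 5.88) and Col12a1 3.03-fold higher (2.58 to 3.57), which makes 2 called higher and 3 lower of 5 measured, where 25.4% and 25.3% of genes were. In cells with at most 5% mitochondrial UMIs the log2 ratio of Col12a1 was 0.59, short of the limit. Col6a3 went from 2 UMIs to 561, a ratio of 39.9 with an interval from 10.997 to 330.4, and stayed under 5 CPM.

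In TA no collagen was called higher, where 29.2% of genes were. Col6a1 was 43.2-fold lower (37.6 to 49.8), Col6a2 44.1-fold lower (33.3 to 59.3) and Col19a1 3.24-fold lower (2.90 to 3.62). Col12a1 was 2.05-fold lower (1.76 to 2.38), the fourth collagen called lower of 5 measured, where 24.7% of genes were. Col8a1 was 1.85-fold higher (1.63 to 2.12), short of the limit, and Col16a1, below 5 CPM in both, 34.4-fold lower (18.4 to 70.2). Under TMM factors the activation ratios shift by 0.40 on the log2 scale in EOM and by 0.28 in TA, which puts Col8a1 of TA past the limit at 2.25-fold higher and Col12a1 of TA short of it at 1.69-fold lower. Myod1 was 4.41-fold higher in activated than in quiescent cells of EOM, whereas its ratio in TA was 1.004 (0.989 to 1.02). The part of Myod1 in the activation ratios was not tested. The activated libraries hold differentiating cells that the quiescent ones lack. With the Myog-free activated cells alone, an alternative added after the data were seen, Col6a1 was 3.58-fold lower than in quiescent cells in EOM and 23.6-fold lower in TA, Col8a1 was 7.33-fold and 2.67-fold higher, and Col12a1 was 4.54-fold higher in EOM with a ratio of 0.719 in TA. Col3a1, a fibrillar chain that leads the fibroblast list, was 5.19-fold lower in EOM and 7.83-fold lower in TA, and Dcn, a defining fibroblast gene, went from 38.3 and 24.0 CPM to 0.0163 and 0.0196. A single cell held 292 of the 669 Dcn UMIs of quiescent EOM, and 1 cell held 302 of the 369 of quiescent TA. Other genes of the same list ran differently: Ly6a went from 0.172 to 9.06 CPM in EOM and from 0.130 to 21.0 in TA, and Col1a1 from 4.29 to 11.3 in EOM and from 8.93 to 2.80 in TA. The part of fibroblast RNA in the collagens' falls was not tested.

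**Figure D3:**
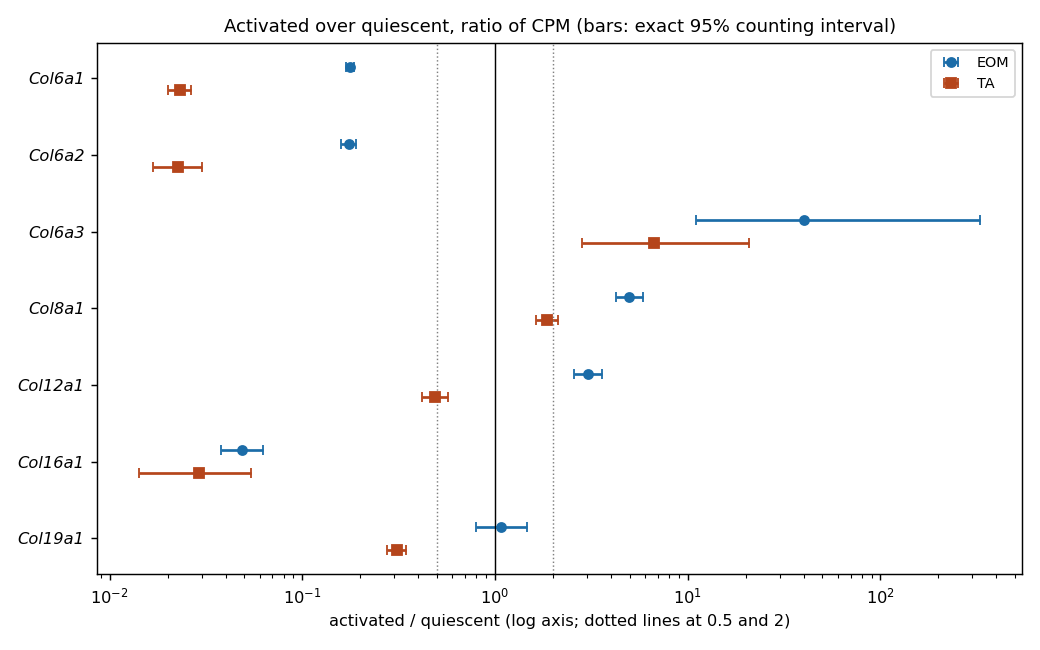
Ratio of CPM in activated to CPM in quiescent cells (log axis) for 7 collagens in EOM (circles) and TA (squares), with exact 95% counting intervals and dotted lines at 2-fold either way. Col6a1 and Col6a2 lie left of 0.5 in both muscles and farther left in TA, and Col12a1 lies at 3.03 in EOM and 0.487 in TA.

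Within each activated library, cells were split by Myog to follow the collagens from undifferentiated to differentiating cells. A cell with no Myog UMI among 2000 counted as Myog-free (2748 of the EOM and 1656 of the TA cells) and any other as Myog-holding (2784 and 2578). This is a cut on a count and not a cell type: 507 EOM and 544 TA cells held exactly 1 Myog UMI, the Myog-free cells still had 81.2 (EOM) and 141 CPM (TA) of Myog in their full counts, and without thinning 982 and 420 cells had no Myog UMI. Pax7 was at 118 CPM in Myog-free and 29.97 in Myog-holding EOM cells, and at 88.7 and 32.0 in TA.

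All 5 collagens measured in activated EOM were called lower in Myog-holding cells, where 6.52% of 9050 genes were called lower and 6.62% higher, and their median log2 ratio was -1.76 against -0.11 over all genes tested. Col6a1 went from 49.7 to 11.8 CPM, 4.21-fold lower (3.88 to 4.57). Col6a2 went from 15.2 to 3.11 CPM (4.90-fold lower) and Col6a3 from 7.47 to 1.496 (4.99-fold lower, 3.97 to 6.34), so that all 3 chains of type VI were lower by 4.21-fold to 4.99-fold. Col8a1 went from 65.0 to 22.1 CPM (2.95-fold lower) and Col12a1 from 41.6 to 13.1 (3.19-fold lower). Col19a1 was the exception, at 2.01 CPM in Myog-free and 4.30 in Myog-holding cells, 2.14-fold higher (1.72 to 2.67) but below 5 CPM in both.

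In activated TA, 2 of 3 measured collagens were called lower in Myog-holding cells, where 2.13% of 8870 genes were called lower and 4.24% higher. Col8a1 went from 42.8 to 20.7 CPM (2.07-fold lower, 1.93 to 2.23) and Col12a1 from 10.7 to 4.89 (2.19-fold lower, 1.89 to 2.55). Both sit near the limit, and Col8a1 was 1.95-fold lower under TMM factors. The type VI chains were below 5 CPM in both states: Col6a1 went from 173 UMIs to 58 (4.34-fold lower in CPM, 3.20 to 5.94) and Col6a3 from 180 to 43 (6.08-fold lower, 4.34 to 8.70). Col19a1 was at 8.57 CPM in Myog-free and 10.4 in Myog-holding cells, a ratio of 1.21 (1.06 to 1.38).

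Along the finer split into cells with 0, 1, 2 to 3, and 4 or more Myog UMIs, Col6a1 of activated EOM was at 49.7, 34.7, 10.8 and 4.89 CPM. Col8a1 followed with 65.0, 49.7, 23.6 and 13.0 CPM, Col12a1 with 41.6, 33.8, 16.9 and 5.64, and Col6a3 with 7.47, 5.599, 1.62 and 0.183. In activated TA, Col8a1 ran through 42.8, 29.8, 23.0 and 16.2 CPM and Col6a3 through 4.32, 1.56, 1.11 and 0.232. Each of these genes was lower at each step in both muscles, with neighbouring intervals that overlapped for Col6a3, between 0 and 1 UMI in EOM and between 1 and 2 to 3 in TA. Col19a1 showed no such fall, with 2.01, 3.18, 4.21 and 4.68 CPM in EOM and 8.57, 10.6, 10.9 and 10.1 in TA, where neighbouring intervals overlap. In EOM cells with 4 or more Myog UMIs Col8a1 was at 13.0 CPM, under the 16.2 CPM of such TA cells, while in Myog-free cells it was above TA. Among Myog-free EOM cells, those with and without a UMI of Mki67 or Top2a had 49.8 and 49.4 CPM of Col6a1, 65.0 and 65.0 of Col8a1, and 40.9 and 42.9 of Col12a1, whereas Col6a3 was at 8.57 and 5.61, with intervals that do not overlap. In Myog-free TA cells Col19a1 was at 9.92 CPM in those with a cycling gene and 6.54 in those without.

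**Figure D4:**
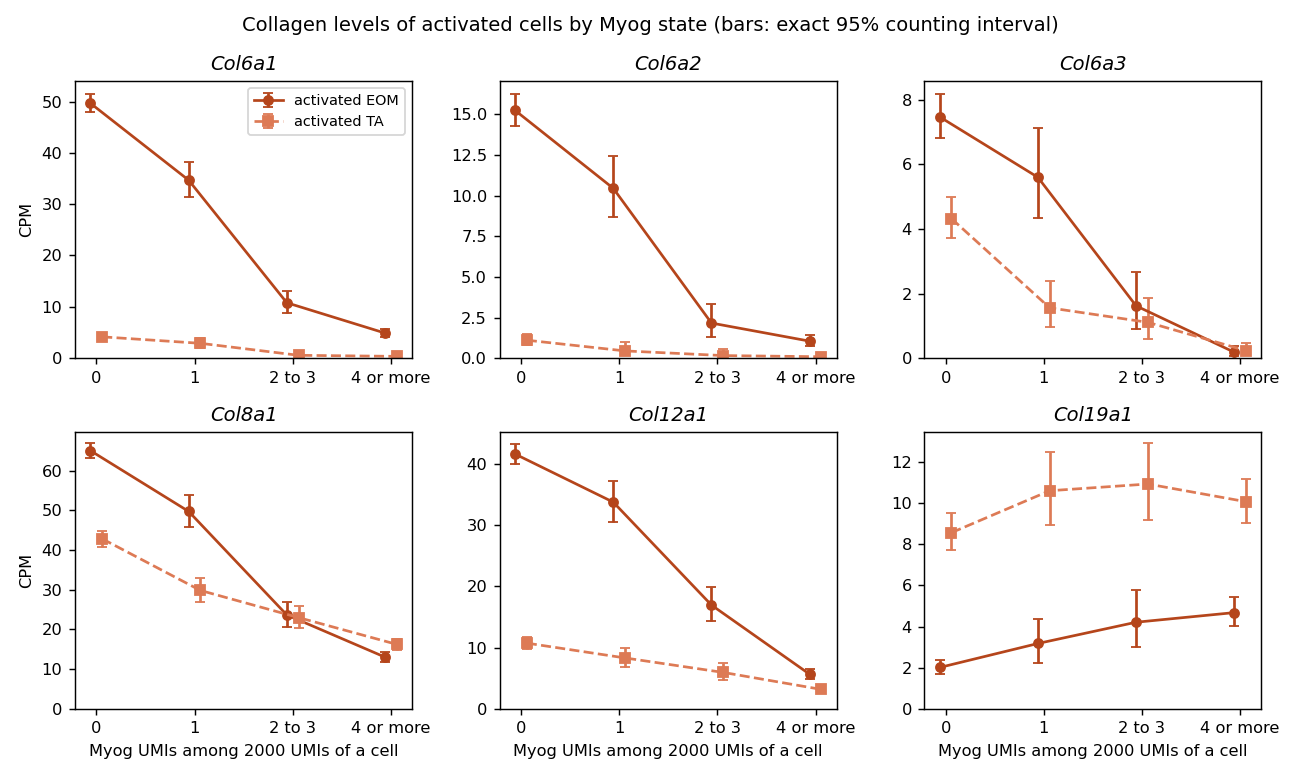
Level (CPM) of 6 collagens in activated EOM (circles, solid lines) and activated TA (squares, dashed lines) cells grouped by the number of Myog UMIs among 2000; bars are exact 95% counting intervals and lines only join the points. Col6a1 of EOM goes from 49.7 to 4.89 CPM, Col8a1 of EOM crosses from above to below TA, and Col19a1 does not fall.

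The difference between muscles was then taken within each state. In Myog-free cells, 3 of 6 measured collagens were called higher in EOM and 1 lower, against 3.41% and 2.11% of 8909 genes. Col6a1 was 12.0-fold higher (10.3 to 14.0), Col6a2 13.8-fold (10.3 to 19.0) and Col12a1 3.88-fold (3.51 to 4.30), and Col19a1 was 4.26-fold lower (3.47 to 5.26). In Myog-holding cells, 2 of 4 were called higher and 1 lower, against 2.40% and 1.29% of 8767 genes. Col6a1 was 12.3-fold higher there (9.42 to 16.4), Col12a1 2.67-fold higher (2.33 to 3.06) and Col19a1 2.41-fold lower (2.08 to 2.80), while Col8a1 had a ratio of 1.07 with an interval from 0.987 to 1.15 that includes 1. Myog-holding cells made up 60.9% of TA and 50.3% of EOM cells, and the Col6a1 ratio over all of them was 13.8. Myod1 differed between the muscles in the Myog-free state, at 231 CPM in EOM and 862 in TA, and so did the Myog left in their full counts, as given above; the part of either was not tested. Among the cells with no Myog UMI without thinning, the log2 ratio of EOM to TA was 2.98 for Col6a1 and -1.26 for Col19a1.

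Cells with a Col6a1 UMI were compared with cells without one for the other chains, at 2000 UMIs per cell. In activated EOM, Col6a2 was present in 7.08% (4.64 to 10.3) of 353 cells with Col6a1 and in 1.49% (1.18 to 1.85) of 5179 cells without it, and Col6a3 in 3.12% (1.57 to 5.51) and 0.714% (0.504 to 0.983). Col12a1 was present in 12.5% and 5.19% of the same cells. In quiescent TA the shares for Col6a2 were 7.06% (4.85 to 9.87) of 439 cells and 3.57% (2.86 to 4.38) of 2412. In quiescent EOM they were 9.21% (7.49 to 11.2) of 999 cells and 9.47% (8.35 to 10.7) of 2513, with overlapping intervals. In activated TA 18 cells held Col6a1 and none of them Col6a2, too few to compare. These cells share a library, so the values describe it and are not tests.

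The genes whose counts across cells were most like a collagen's were sought where the collagen reached 20 CPM, as Pearson's r of log-scaled UMIs over the cells of the library where it was highest. For Col8a1 in the 5563 cells of activated EOM they were Prss23 (r = 0.445), a serine protease, Tagln2 (0.423), Anxa1 (0.403), Cald1 (0.395), an actin-binding regulator of contractility, and Anxa5 (0.383). For Col12a1 in the same cells they were Cald1 (0.427), Mgp (0.406), matrix Gla protein, Col1a2 (0.403), the alpha 2 chain of type I collagen, Islr (0.403) and Crip1 (0.392). All these points share 1 library and its range of depth. For Col6a1 and Col6a2 in quiescent EOM and Col19a1 in quiescent TA no gene reached r = 0.2. The highest were 0.146, 0.124 and 0.0805. Those libraries had medians of 4662 and 5038 UMIs per cell against 21261 in activated EOM, so r was not compared between libraries.

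Other genes of the same matrix were read from lists of names, each gene with the same limits. Col6a6, a type VI chain related to Col6a3, was at 8.07 CPM in quiescent EOM and 3.00 in quiescent TA (2.69-fold, 1.92 to 3.84) and had no UMI in activated EOM. Of 8 other fibril-associated and network-forming collagens listed, 7 were among the features under the listed symbol, and none of these reached 5 CPM in any comparison. Among 11 fibrillar chains, on which types XII and XIV lie, 4 of 6 measured were called higher in activated EOM than in activated TA and none lower (2.97% and 1.37% of all genes), with Col1a2 at 544 and 76.1 CPM (7.14-fold) and Col3a1 at 67.3 and 55.0 (1.23-fold). In the Myog split, 4 of 6 fibrillar chains in EOM and 2 of 6 in TA were called lower in Myog-holding cells (6.52% and 2.13% of all genes), and Col1a2 of EOM went from 730 to 346 CPM.

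Of 24 receptors and partners, 4 of 12 measured were called higher in activated EOM and 1 lower (2.97% and 1.37% of all genes). Bgn, the proteoglycan biglycan, which binds type VI collagen, was 6.54-fold higher in activated EOM (161 against 24.7 CPM) and 4.36-fold higher in quiescent EOM (303 against 69.4). Cspg4, the NG2 proteoglycan and a type VI receptor, was at 5.27 CPM in quiescent EOM and 0.977 in quiescent TA, and at 2.94 and 8.95 in the activated libraries. Antxr1, a cell surface receptor for type VI collagen, was 2.56-fold higher in Myog-free EOM cells (30.2 against 11.8 CPM). After activation 10 of 18 partners were called lower and 3 higher in EOM, and 12 of 18 lower and 3 higher in TA, where 25.3% and 24.7% of all genes were called lower and 25.4% and 29.2% higher. Among them were Tnxb, the fibril-binding tenascin X, which went from 104 and 83.0 CPM to 0.0163 and 0, and Fn1, fibronectin, which was 3.85-fold higher in EOM and 4.62-fold higher in TA.

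Of 30 genes for collagen folding, secretion and maturation, 3 of 22 measured were called higher in activated EOM than in TA and none lower (2.97% and 1.37% of all genes), among them Pcolce, the enhancer of procollagen C-proteinase, at 58.7 and 17.5 CPM. Serpinh1, the collagen chaperone HSP47, went the opposite way to Col6a1 on activation, from 178 to 944 CPM in EOM and from 189.9 to 714 in TA. Loxl2, a cross-linking lysyl oxidase, went from 59.8 to 1.17 CPM in EOM and from 39.0 to 1.42 in TA. When cells were split by Myog, 7 of 25 of these genes in EOM and 2 of 22 in TA were called lower in Myog-holding cells (6.52% and 2.13% of all genes) and none higher.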

How the data were processed

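Raw UMI counts per gene and barcode were deposited by the authors for 4 single-cell libraries. The submitters' processing notes name Cell Ranger 3.0.2 and the mm10 build; neither the annotation release nor the rule for calling cells is given in the sources used here. Barcodes with at least 500 genes and at most 10% mitochondrial UMIs were kept. Scrublet's automatic threshold in scanpy 1.11.5 called 0 to 2 doublets per library and so did not work, and the highest scores were removed by rank, 0.8% per 1000 barcodes. Each library was clustered (Leiden, igraph 0.11.9, 2000 variable genes, 30 components, 15 neighbours, resolution 1). A cluster was named from at least 3 markers, each 4-fold above the other cells and in 10% of its cells, a rule set after a first clustering had been seen, and 16 endothelial-like cells of quiescent TA were left out.

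Counts were summed over cells and scaled to CPM. Ratios carry exact Poisson intervals and shares exact Clopper-Pearson intervals, at 95%, for counting error only. A log2 ratio has a pseudocount of 1 CPM, and 3 counts stand for a limit at 0. Shares and Myog states used cells thinned to 2000 UMIs, which left out 31 to 82 cells per library. Floors of 3 UMIs equal 0.172 and 0.195 CPM in the quiescent libraries of EOM and TA and 0.0244 and 0.0293 CPM in the activated ones. The calling rule was run on simulated Poisson counts with known changes. That checks the code only, because the simulation holds no spread between libraries or cells. All 8 collagens are named. List genes were named among the 3 highest or lowest ratios of their list. A few were chosen after their values were seen (Col3a1, Col1a1, Dcn, Ly6a, Fn1, Pdgfrb, Notch3, Acta2, Dpt, C1qa, C1qb, Laptm5, Cd68). The collagens and the lists were chosen with earlier results of these data known. Other scalings used edgeR 4.0.16 (TMM) and DESeq2 1.42.0 (median of ratios), and other cell filters and limits were tried. Symbols, IDs and positions were matched to GENCODE vM21, which may not be the release used for counting.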

Additional observations from a re-analysis of the deposited data

Results flagged for a closer look

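Col12a1 was called in opposite directions on activation in the muscles. Its CPM was 3.03-fold that of quiescent cells in EOM and 0.487-fold in TA. The difference was not tested, since each muscle has 1 library per state, and the TA ratio lies close to the 2-fold limit. In TA it was 1.69-fold lower under TMM factors and 1.83-fold lower under median-of-ratios factors, both short of the limit. With Myog-free activated cells alone the TA ratio was 0.719. With at most 5% mitochondrial UMIs the log2 ratio was 0.59 in EOM and -3.37 in TA. The quiescent cells left by that filter were few, 263 in EOM and 46 in TA, with 27 and 16 Col12a1 UMIs.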

How the results depend on the processing

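Of 30 ratios called at 2-fold or more, recomputed under 339 alternatives, 2 changed direction: with at most 5% mitochondrial UMIs, where 46 quiescent TA cells remained, the quiescent EOM to TA log2 ratio was -0.10 for Col6a2 and -0.30 for Col16a1. Those ratios rest on 14 and 2 TA UMIs, with intervals that include 1, and the cause was not tested. Of 728 log2 ratios of single collagens, called or not, 111 moved beyond the counting interval. Called ratios moved by over 1.5 times in 15 cases with at most 5% mitochondrial UMIs, 5 with Myog read without thinning, 4 with at least 2 Myog UMIs and 3 with only Myog-free activated cells. Read without thinning, the Myog split of EOM gave log2 -1.25 for Col6a1 (-1.98 in the report) and -0.96 for Col12a1 (-1.60). At most 5% mitochondrial UMIs gave -3.37 for Col12a1 on activation of TA (-0.95 in the report), with 16 UMIs in the quiescent cells. The share of all genes called under these settings is not given here, so the counts below show only how the calls depend on the setting. Counts of collagens called moved as follows, and all other counts stayed within 1.5 times. For quiescent EOM against TA, 2 called higher became 1 with median-of-ratios factors, 0 with at most 5% mitochondrial UMIs and 1 at 20 CPM, and 1 called lower became 3 with at most 5% mitochondrial UMIs, 2 without cells holding markers of other types and 2 with no CPM limit. For activated EOM against TA, 3 higher became 5 with no limit and 1 lower became 0 at 20 CPM. For activation of EOM, 2 higher became 4 with no limit. For activation of TA, 0 higher became 1 with TMM factors, median-of-ratios factors, all barcodes, no limit and Myog-free cells alone. For the Myog split of EOM, 0 higher became 1 with at most 5% mitochondrial UMIs and with no limit, and 5 lower became 3 with at most 5% mitochondrial UMIs, at 20 CPM and with Myog read without thinning. For that of TA, 2 lower became 1 with TMM factors, median-of-ratios factors, no doublet removal, all barcodes, at 20 CPM, with Mymk and Mymx added to Myog, and at 5000 UMIs, and 7 with no limit. In Myog-free cells of EOM against TA, 1 lower became 0 at 20 CPM. In Myog-holding cells, 2 higher became 5 with no limit and 0 at 20 CPM, and 1 lower became 0 with at most 5% mitochondrial UMIs and at 20 CPM. No paired analysis was possible because each group has 1 library. Depth limits Col14a1, Col6a3 of quiescent cells and the type VI chains of activated TA.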
